A study of Bos taurus with 29 samples.

Results

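The 14-3-3 family was followed through bovine digital dermatitis, an infectious skin disease of the foot, as 7 genes: SFN (stratifin, also called 14-3-3 sigma), YWHAZ, YWHAQ, YWHAG, YWHAE, YWHAB and YWHAH. The members were taken by gene symbol from the 5 deposited tables that set each lesion stage against control skin, and the family had been selected on its difference from that control skin. All 7 were listed in every table and passed the filter on low counts, so they are 7 of 10371 genes fitted, from 10629 genes shared by the tables and 11479 listed in any. For the members, comparisons with control skin are therefore given as descriptions, and the tests of the members are between lesion stages. Markers and the genes of partner and stratifin lists, which the rule did not use, were also tested against control skin. These lists were chosen with earlier results of these data known. Their calls and p-values against control skin are therefore descriptions too.

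Messenger RNA was sequenced from its 3′ ends in 29 skin biopsies. All came from Holstein-Friesian animals, which are dairy cattle. Control skin (M0, 5 libraries) was taken from above the cleft between the claws of slaughtered animals. Lesion skin came from the stages M1 (early, 5 libraries), M2 (acute ulcerated, 5), M3 (healing, 5), M4 (chronic, 5) and M4.1 (chronic with a renewed active area, 4). Of the lesion samples 22 came from 6 farms and 2 unnamed M1 samples from the slaughterhouse. Disease, body site and sample source cannot be told apart in any comparison with M0. Stage and sample source are also partly mixed in comparisons that include M1, and no label gives the farm of a sample. The labels do not say that replicates were separate animals, so p-values measure the spread between these samples. In whole biopsies fewer cells of a type and less RNA per cell cannot be told apart.

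The 14-3-3 proteins are small adaptors that pair into dimers and bind partner proteins carrying a phosphorylated serine or threonine. By binding they hold a partner in the cytoplasm, shield its phosphate or change its activity, and their known partners include CDC25 phosphatases, RAF kinases, the death protein BAD and FOXO and YAP transcription regulators. Stratifin is the epithelial member. In human and mouse keratinocytes it is linked to exit from the cell cycle and to differentiation, and stratifin released by human keratinocytes raises collagenase production by fibroblasts.

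Library totals over the shared genes were 2858186 to 5399615 counts. The lowest count of any member in any library was 225, for YWHAH in M3, and the lowest SFN count was 1985, in M0. Levels are library-scaled counts (CPM, in which a library's counts are set to a common total), adjusted by the trimmed mean of M-values. They are counts of transcript ends, and how reads that match several members were divided was not given in the sources used here, so levels of different members are compared only as shares of counts.

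SFN was the member that stood highest above control skin. In M0 its 5 libraries held 379, 443, 507, 420 and 355 CPM. In M1 they held 3099, 3516, 3484, 2396 and 2891 CPM. In M2 they held 3210, 3639, 2996, 3391 and 2907 CPM. Every M1 and M2 library lay above every control library, and the M2 values were closely grouped. In M3 the SFN values were 2613, 4252, 3758, 1917 and 2709 CPM, and in M4 they were 3203, 4069, 4870, 5250 and 2795 CPM. The 4 libraries of M4.1 held 4099, 4051, 3567 and 3897 CPM. M3 held the lowest lesion library, its replicate 4, and M4 held the highest, also its replicate 4.

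Mean SFN levels were 421 ± 59.0 CPM in M0 (SD, n = 5), 3077 ± 463 in M1, 3229 ± 297 in M2, 3050 ± 940 in M3 and 4037 ± 1049 in M4, with 5 libraries each, and 3903 ± 240 in M4.1 (n = 4). The spread in M3 and M4 was thus wider than in M2 or M4.1. Against M0 the log2 fold changes were 2.87 ± 0.19 (SE) in M1, 2.94 ± 0.19 in M2, 2.86 ± 0.19 in M3, 3.26 ± 0.19 in M4 and 3.21 ± 0.20 in M4.1. These are 7.31, 7.67, 7.25, 9.59 and 9.28 times the control level. By mean level over all libraries SFN ranked 28 among the genes fitted.

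In order of mean SFN level the groups ran M0, M3, M1, M2, M4.1 and M4. The step from M0 to M3 exceeded the larger SD of the 2 groups and their ranges did not overlap. The steps from M3 to M1, from M1 to M2 and from M4.1 to M4 were smaller than the larger SD. The step from M2 to M4.1, 675 CPM, exceeded it, but the ranges of those groups overlapped.

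YWHAZ (14-3-3 zeta), a broadly expressed member that binds RAF kinases and BAD, was next. Its M0 libraries held 113, 172, 132, 107 and 133 CPM. In M1 they held 648, 753, 659, 548 and 556 CPM, and in M2 646, 943, 625, 896 and 756 CPM. No lesion library of these stages came near the highest control library. In M3 YWHAZ stood at 645, 563, 751, 389 and 496 CPM, in M4 at 778, 707, 662, 732 and 497 CPM, and in M4.1 at 580, 742, 505 and 599 CPM. The lowest lesion library was again M3 replicate 4, and the highest was M2 replicate 2. Log2 fold changes against M0 were 2.27 ± 0.18 (SE) in M1, 2.56 ± 0.18 in M2, 2.11 ± 0.17 in M3, 2.36 ± 0.18 in M4 and 2.21 ± 0.18 in M4.1. The stage order by mean was M3, M4.1, M1, M4 and M2, and each step in it was smaller than the larger SD.

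YWHAQ (14-3-3 theta, or tau), known from T cells and brain but found in many tissues, had 214, 264, 198, 269 and 245 CPM in M0. It had 667, 741, 852, 466 and 493 CPM in M1 and 800, 728, 672, 597 and 676 CPM in M2. It had 616, 674, 588, 595 and 581 CPM in M3 and 697, 546, 691, 676 and 607 CPM in M4. The 4 libraries of M4.1 had 961, 756, 635 and 661 CPM, including the highest of all. The groups M0 and lesion did not overlap, and M1 had the widest spread. Log2 fold changes against M0 were 1.44 ± 0.15 (SE), 1.55 ± 0.15, 1.36 ± 0.15, 1.44 ± 0.15 and 1.66 ± 0.15 in the same order of stages.

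YWHAG (14-3-3 gamma), another RAF partner, and YWHAE (14-3-3 epsilon), which forms mixed dimers with other members and binds CDC25 phosphatases, differed less from control skin. YWHAG held 255, 273, 228, 243 and 262 CPM in M0 and a mean of 412 ± 93.9 CPM in M1 (SD, n = 5), 427 ± 54.9 in M2, 396 ± 34.1 in M3, 435 ± 61.2 in M4 and 432 ± 49.4 in M4.1 (n = 4). Its 24 lesion libraries ran from 277 to 516 CPM, and the lowest, M1 replicate 4, was just above the highest control library at 273 CPM. YWHAE held 469, 462, 472, 420 and 412 CPM in M0 and 528 to 902 CPM over the lesion libraries. YWHAE did not overlap control skin in any stage. From M1 through to M4.1 the log2 fold changes against M0 were 0.71, 0.76, 0.65, 0.79 and 0.77 for YWHAG, with SEs of 0.14. For YWHAE they were 0.65, 0.70, 0.54, 0.56 and 0.71, also with SEs of 0.14.

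YWHAB (14-3-3 beta), which also binds RAF kinases, and YWHAH (14-3-3 eta), best known in nervous tissue, were nearest to control skin. YWHAB in M0 held 1025, 839, 773, 784 and 667 CPM. It held 982, 1053, 904, 951 and 1019 CPM in M1, 989, 1178, 826, 1242 and 1062 CPM in M2, and 870, 1039, 1016, 1223 and 974 CPM in M3. It held 1153, 1352, 963, 1017 and 1117 CPM in M4 and 1017, 982, 985 and 990 CPM in M4.1. YWHAB overlapped control skin in every stage, and 9 of 24 lesion libraries lay above the highest control library. YWHAH ran from 80.7 to 102 CPM in M0 and from 93.0 to 155 CPM in lesions, and 23 of 24 lesion libraries lay above the highest control library. For SFN, YWHAZ, YWHAQ, YWHAG and YWHAE that number was 24 of 24. The share of all genes with such a separation was not computed. As the family was chosen on its difference from M0, nothing is read from these numbers. Log2 fold changes against M0 were 0.26, 0.37, 0.33, 0.45 and 0.28 for YWHAB (SEs of 0.12 to 0.13) and 0.31, 0.38, 0.38, 0.34 and 0.54 for YWHAH (SEs of 0.10 to 0.11).

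**Figure D1:**
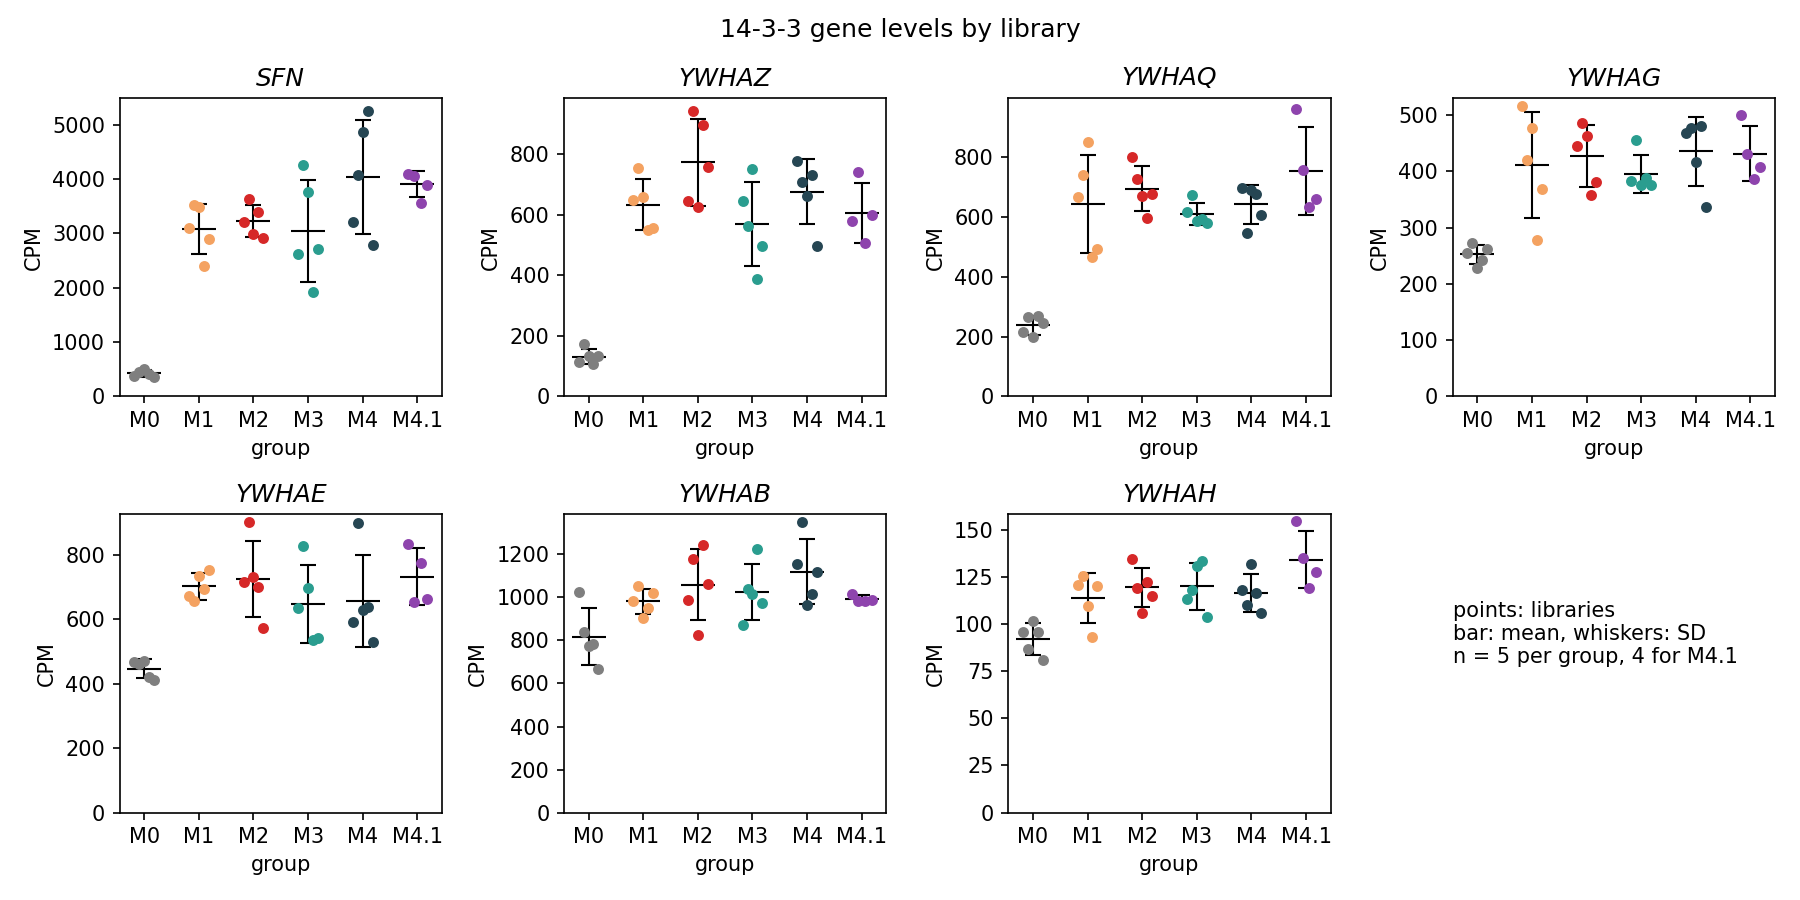
Level of each 14-3-3 gene in CPM (y axis, from 0, scaled separately per gene) in the libraries of the 6 groups (x axis); points are libraries, the long bar is the mean and the whiskers are the SD, with n = 5 per group and 4 for M4.1. SFN, YWHAZ and YWHAQ lie well above control skin in every lesion library, whereas YWHAB overlaps it in every stage.

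Read across the family, the fitted genes at an adjusted p under 0.05 (edgeR quasi-likelihood test, Benjamini-Hochberg over 10371 genes) included 6 members above M0 in M1, 7 in M2, 7 in M3, 7 in M4 and 6 in M4.1. YWHAB was the member not included in M1 and M4.1. Of all genes 21.9%, 21.7%, 20.4%, 21.3% and 20.2% were called higher in the same comparisons. No member was called lower, against 21.1%, 20.5%, 19% (1968 genes), 21.1% and 18.9% of all genes. As the family was chosen for these differences, nothing is read from those counts. The 5 comparisons share the same M0 libraries. The median log2 fold change of the members was 0.71, 0.76, 0.65, 0.79 and 0.77, and over all genes the medians lay between -0.025 and -0.0037.

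**Figure D2:**
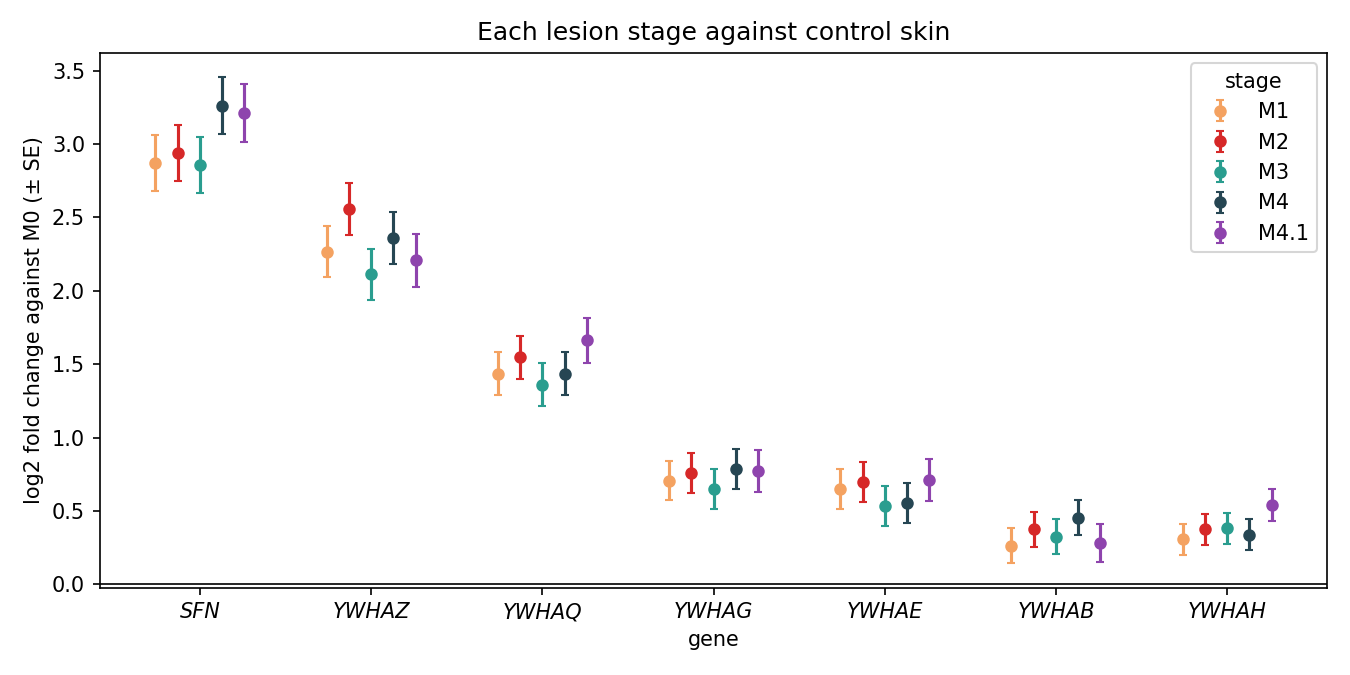
Log2 fold change of each 14-3-3 gene (x axis) in each lesion stage against M0 (y axis); points are estimates from the fit over all 29 libraries and bars are ± SE. SFN lies at 2.86 to 3.26, YWHAZ at 2.11 to 2.56, YWHAQ at 1.36 to 1.66, and the other members below 0.80.

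The make-up of the family's counts differed between control skin and lesions. YWHAB contributed 33.9% ± 3.62 of the 14-3-3 counts in M0 (SD, n = 5) and SFN 17.6% ± 2.27. In lesions SFN contributed 46.7% ± 1.72 in M1, 45.9% ± 0.722 in M2, 46.7% ± 6.50 in M3, 51.9% ± 6.30 in M4 (n = 5 each) and 51.7% ± 1.2 in M4.1 (n = 4). Control libraries ran from 14.9% to 21% SFN and lesion libraries from 37.0% (M3 replicate 4) to 58.9% (M4 replicate 4), so the groups did not overlap. The mean YWHAB share was 13.2% to 16.5% in the stages. The YWHAQ share was 9.97% in M0 and 8.52% to 9.94% in the stages, while the YWHAZ share was 5.49% in M0 and 8.02% to 11% in the stages. Summed over the family, the level was 2399 ± 163 CPM in M0 (SD, n = 5) and its stage means ran from 6417 CPM in M3 to 7685 CPM in M4, 2.68 to 3.2 times M0.

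**Figure D3:**
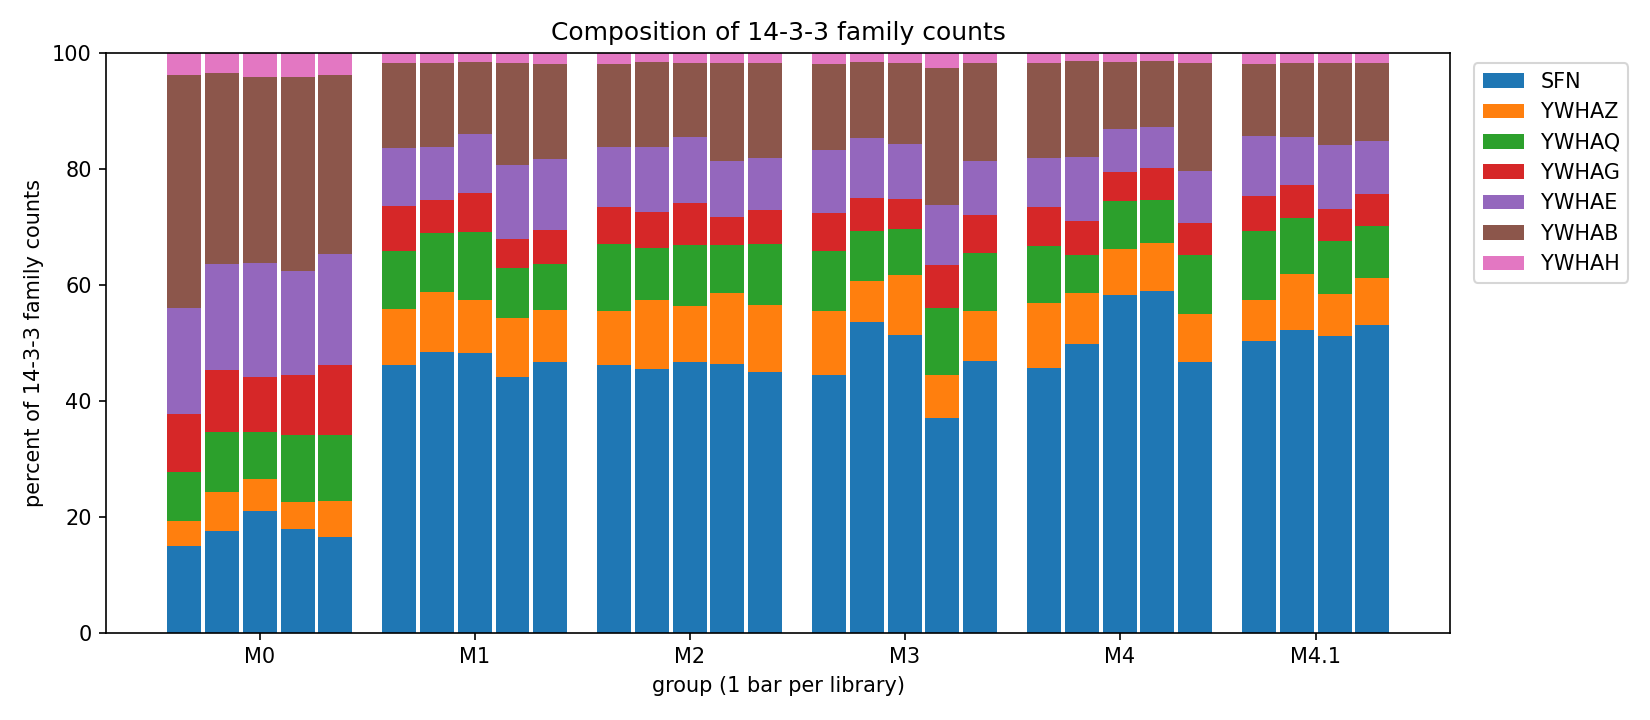
Percent of all 14-3-3 counts (y axis, the whole family) from each of the 7 genes, with 1 stacked bar per library grouped by stage (x axis). SFN makes up 14.9% to 21% of control libraries and 37.0% to 58.9% of lesion libraries.

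Whether the SFN share differed between lesion stages was tested for 3 pairs by a two-sided exact permutation test over libraries. The share was 5.93 percentage points higher in M4 than in M2, with an exact p of 0.0556 and an adjusted p of 0.167 over the 3 pairs. Without M4 replicate 1 the difference was 7.48 points and its adjusted exact p was 0.0476. It was 5.15 points higher in M4 than in M1 (exact p = 0.151, adjusted 0.226) and 0.189 points lower in M4.1 than in M4 (exact p = 0.937, adjusted 0.937). The smallest p these designs allow is 0.00794 with 5 against 5 libraries and 0.0159 with 4 against 5. None of the 3 differences passed 0.05 after adjustment when all libraries were used.

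The comparisons between lesion stages ask whether the family follows the course of the disease. At an adjusted p under 0.05 no member was called in any of them by edgeR's quasi-likelihood test, and limma-voom and DESeq2 also called 0 of 7. Between M2 and M1, M3 and M2, and M4 and M3, the call rate over all genes was 0%, although 417, 923 and 715 genes had an unadjusted p under 0.05. DESeq2 called 2 genes between M4 and M3, neither a member. The rate was 4.3% between M4.1 and M4, 3.11% between M4 and M2 and 5.3% between M4 and M1. Among all 5 stages at once it was 2.58%. With an unadjusted p under 0.05 there was 1 member each between M3 and M2 (YWHAZ), M4 and M3 (SFN) and M4 and M1 (SFN), and 0 in the other 4 comparisons.

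For SFN the largest of these differences was M4 against M3, a log2 fold change of 0.40 with a 95% interval of 0.04 to 0.77 (edgeR adjusted p = 0.675). M4 was above M1 by 0.39 on the log2 scale (95% interval 0.03 to 0.76, edgeR adjusted p = 0.174) and above M2 by 0.32 (-0.04 to 0.69, edgeR adjusted p = 0.270). Between M4.1 and M4 the SFN estimate was -0.05 (-0.43 to 0.34, edgeR adjusted p = 0.908). M2 against M1 gave 0.07 (-0.29 to 0.43) and M3 against M2 gave -0.08 (-0.45 to 0.28). These intervals leave room for a ratio of up to 1.70 between M4 and M3 and of 0.740 to 1.26 between M4.1 and M4.

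For YWHAZ the level in M3 was 0.74 times that in M2, a log2 difference of -0.44 with a 95% interval of -0.79 to -0.10 and an unadjusted p of 0.0132. Its edgeR adjusted p was 0.523. In the other 5 pairs the 95% intervals of YWHAZ included 0, and the largest estimate was 0.29 for M2 against M1 (-0.05 to 0.63). For YWHAQ, YWHAG, YWHAE, YWHAB and YWHAH all 6 intervals included 0. Among their largest estimates were 0.23 (-0.09 to 0.54) for YWHAQ and 0.20 (-0.02 to 0.43) for YWHAH, both in M4.1 against M4. In the test among all 5 stages the edgeR adjusted p was 0.328 for SFN, 0.390 for YWHAZ and 0.598 to 0.934 for the other members.

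**Figure D4:**
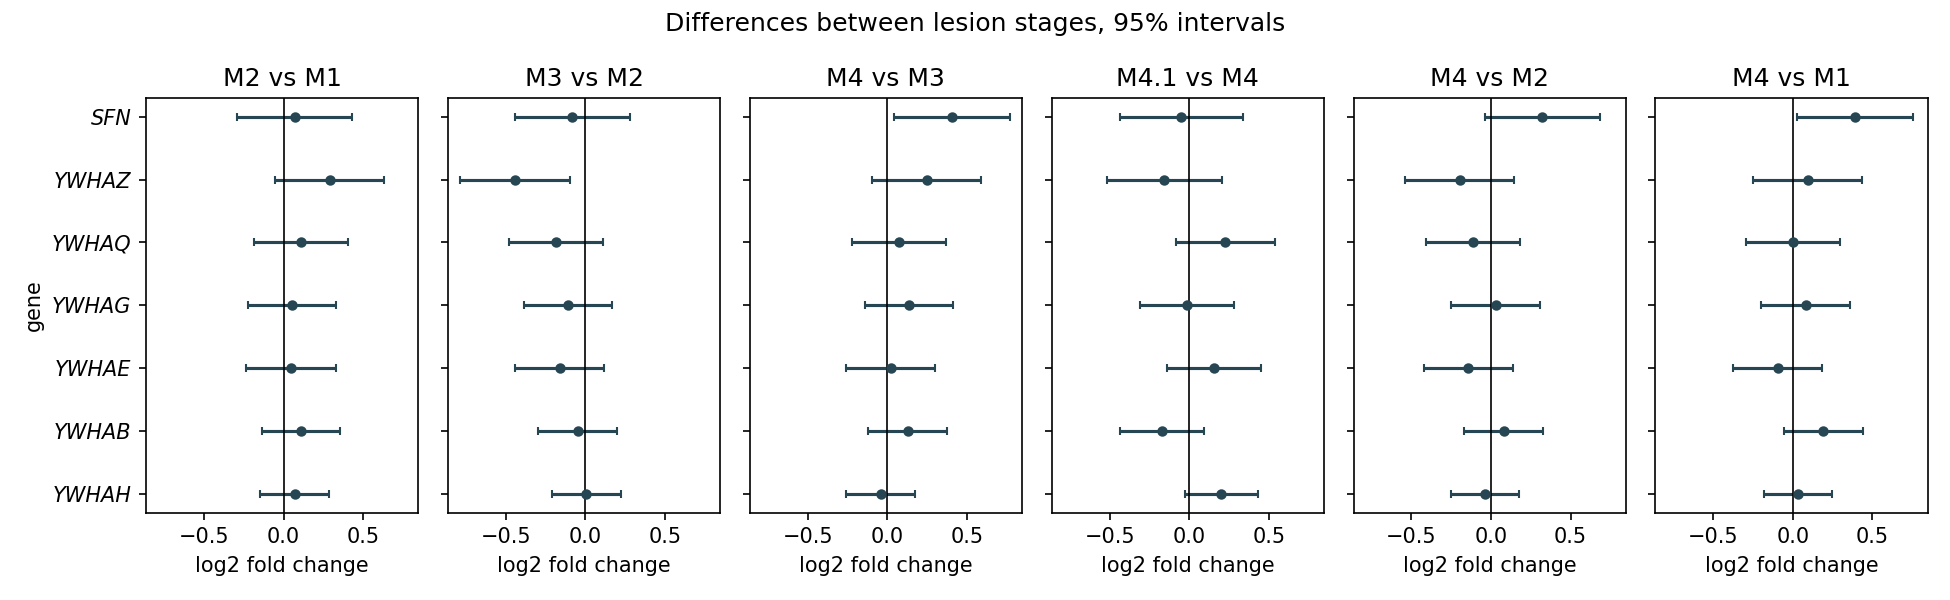
Log2 fold change of each 14-3-3 gene between pairs of lesion stages (x axis, 1 panel per pair, genes on the y axis); points are estimates and bars are 95% intervals before adjustment for multiple tests. The intervals of YWHAZ in M3 against M2 and of SFN in M4 against M3 and M4 against M1 leave out 0, and none of the 3 passed the test after adjustment.

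Between libraries of a stage each member's spread was below the median of all genes. By mean level the members ranked 28 to 963 among the genes fitted, and genes of like level were not compared. The biological coefficient of variation in the fit was 0.218 for SFN, 0.205 for YWHAZ, 0.183 for YWHAQ, 0.175 for YWHAE, 0.172 for YWHAG, 0.161 for YWHAB and 0.129 for YWHAH, and its median over all genes was 0.238. Over the 24 lesion libraries the highest SFN level was 2.74 times the lowest. The same ratio was 2.43 for YWHAZ, 2.06 for YWHAQ and 1.64 to 1.86 for YWHAG, YWHAE, YWHAB and YWHAH.

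SFN was related to other members across the 24 lesion libraries on log2 CPM, with 7 relations computed and p-values from permutation tests adjusted over them. With YWHAG Pearson's r was 0.523 (permutation adjusted p = 0.0475) and Spearman's rho 0.532 (permutation adjusted p = 0.0584). Without the 2 libraries farthest from the median SFN level that r was 0.534, and on deviations from stage means it was 0.494. With YWHAZ r was 0.497 (permutation adjusted p = 0.0475) and rho 0.394 (permutation adjusted p = 0.0809). On deviations from stage means r with YWHAZ was 0.625, but it was 0.276 without the 2 farthest libraries (permutation adjusted p = 0.303). The size of the pooled r thus depended on those 2 libraries. They were left out for their SFN level, which narrows the range of SFN, so no more is read from this.

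Relations of SFN with YWHAE (r = 0.448, rho = 0.423) and YWHAQ (r = 0.433, rho = 0.453) had permutation adjusted p-values of 0.0598 for r and 0.0809 for rho. On deviations from stage means r was 0.549 for YWHAE and 0.393 for YWHAQ, with permutation adjusted p-values of 0.0464 and 0.0391. Without the 2 farthest libraries they were 0.443 and 0.470. With YWHAH r was 0.358 (permutation adjusted p = 0.120) and rho 0.403 (0.0809 by the same permutation test), and r was 0.668 without the 2 farthest libraries and 0.320 within stages. With YWHAB r was 0.006 (permutation adjusted p = 0.979) and rho 0.116, with r at -0.139 within stages and 0.250 without the 2 farthest libraries. All libraries share a scaling to their own total, which ties levels within a library.

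**Figure D5:**
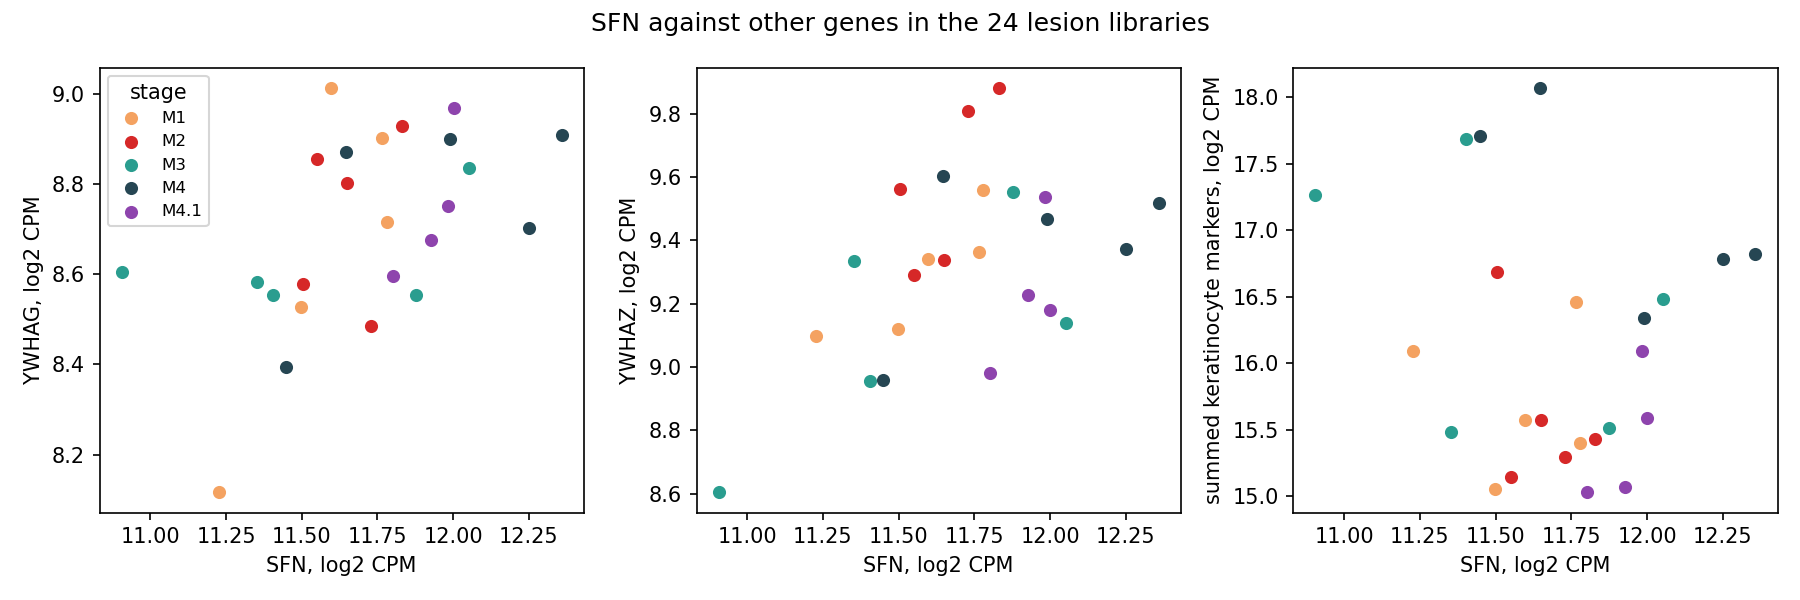
Log2 CPM of SFN (x axis) against YWHAG, YWHAZ and the summed keratinocyte markers (y axes) in the 24 lesion libraries, 1 point per library coloured by stage. Pearson's r was 0.523 and 0.497 for the 2 members and -0.153 for the keratinocyte markers.

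Among the genes whose log2 CPM followed SFN most closely over the 24 lesion libraries were CNN2 (an actin-binding calponin, r = 0.763), TRIB3 (a stress-induced pseudokinase, r = 0.763), SS18 (a chromatin remodelling subunit, r = 0.694) and MARK3 (a polarity kinase that itself binds 14-3-3 proteins, r = 0.683). Within stages these r values were 0.773, 0.702, 0.645 and 0.686. Among all genes YWHAG ranked 119 and YWHAZ 173 by likeness to SFN. For YWHAZ the nearest genes were FBLIM1 (filamin-binding, r = 0.776), RADX (r = 0.709), TMEM267 (r = 0.704), JMJD7 (r = 0.672) and UQCRC1 (a respiratory chain subunit, r = 0.669), and SFN ranked 156. These are the highest of many correlations and are given as a description.

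Because SFN is made by keratinocytes, its level was set beside 10 keratinocyte markers, all of them in the fit and none at 0 in every library of a group. Against M0, 6, 8, 7, 7 and 6 of the 10 rose over the stages in order and 0 fell, beside 20.2% to 21.9% of all genes called higher and 18.9% to 21.1% called lower. Their summed level was 33085 to 50216 CPM in M0, 34043 to 90130 in M1, 36120 to 105537 in M2, 45706 to 210602 in M3, 82820 to 275152 in M4 and 33394 to 69736 in M4.1. KRT1 and KRT10, keratins of differentiating keratinocytes, made up a mean of 70.2% of the sum in M0, 23.9% in M1 and 18.1% in M2. The mean was 50.0% in M3, 62.5% in M4 and 15.5% in M4.1. Single libraries ran from 64.6% to 77.1% in M0, 2.67% to 53.1% in M1 and 0.531% to 61.4% in M2. They ran from 20.6% to 77.8% in M3, 49.5% to 80.6% in M4 and 2.87% to 36.2% in M4.1. The log2 ratio of SFN to the summed markers was -6.63 ± 0.29 in M0 (SD, n = 5), -4.14 ± 0.61 in M1, -3.97 ± 0.69 in M2, -4.97 ± 1.27 in M3, -5.20 ± 1.04 in M4 and -3.51 ± 0.44 in M4.1 (n = 4). M3 and M4 libraries reached -6.36 and -6.42, inside the control range of -7.09 to -6.30. Taken marker by marker, the mean log2 ratio was lowest in M0 for 8 of the 10 markers, with KRT14 and DSG3 the exceptions. The size of the ratio depended on the marker. Against KRT14, a basal keratin, the log2 ratio was -2.62 ± 0.31 in M0, -2.62 ± 0.59 in M3 and -2.71 ± 0.59 in M4 (SD, n = 5 each). It was -2.35 ± 0.40 in M1, -2.29 ± 0.30 in M2 (n = 5 each) and -1.88 ± 0.37 in M4.1 (n = 4). Against DSG3, a desmosomal cadherin, it was 2.66 ± 0.43 in M0 and 2.52 ± 0.21 in M1, whereas against KRT5, the other basal keratin, it was -3.89 ± 0.11 in M0 and -2.50 ± 0.43 in M1. Across lesion libraries r between SFN and the summed markers was -0.153 and rho was -0.069 (permutation adjusted p = 0.554 and 0.750), within stages r was -0.419, and without the 2 farthest libraries it was -0.115. The part of keratinocyte content in the SFN difference from M0 was not tested.

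Markers of other tissue parts were set beside the same shares of all genes, 20.2% to 21.9% higher and 18.9% to 21.1% lower. All 9 fitted hair follicle and gland markers fell in every stage, from a summed 3229 to 3965 CPM in M0 to 0.399 to 450 CPM over the lesions. KRT31 was at 0 in every M3 library, and MUCL1 in every M4 and M4.1 library. Smooth muscle markers fell for 3 to 6 of 6 members, and 1 to 4 of 8 leukocyte markers rose, with summed leukocyte levels of 60.0 to 192 CPM in M0 and 51.5 to 339 CPM in lesions. Of 7 fitted fibroblast markers 1 to 4 rose, and 1 fell in M3 and 3 in M4. Of 6 endothelial markers 1 to 3 fell and up to 1 rose. The counts for leukocyte, fibroblast and endothelial markers include values near those shares. Their part in the 14-3-3 differences was not tested.

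The binding partners of the family were described from lists in M2 against M0. M2 had the most calls of any stage for cell cycle, survival and transcription, and the matrix response to released stratifin. Each of these lists had 6 calls in M2, and the other stages had 4 to 5, 2 to 4 and 1 to 5. In the other lists another stage had as many calls or more. The M2 counts are thus not typical of every stage. In M2 against M0, 21.7% of all genes were called higher and 20.5% lower. Of 9 cell cycle partners fitted, 5 rose and 1 fell, with a median log2 fold change of 0.82 beside -0.02 over all genes. The 5 rises became 4 with RLE factors, the replicate block or a filter of at least 10 counts in at least 10 libraries. They were also 4 without M0 replicate 1, 3, 4 or 5, without M2 replicate 1, 3 or 4, and without some libraries of other stages. CCNB1, the mitotic cyclin B1, rose by 1.97 on the log2 scale (edgeR adjusted p = 8.06e-05) and CDK2, a kinase of DNA replication, by 0.94 (edgeR adjusted p = 0.000120). CDKN1B, the cell cycle inhibitor p27, fell by 0.69 (edgeR adjusted p = 0.000118). CCNB1 and CDK2 rose and CDKN1B fell in all 5 stages, by 1.56 to 2.21, by 0.68 to 0.94 and by 0.40 to 0.69.

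Of 7 growth signalling partners fitted 1 rose and 1 fell, with a median of -0.08. ARAF, a RAF kinase, rose by 1.87 (edgeR adjusted p = 0.000793) and PIK3R1, the regulatory subunit of PI3 kinase, fell by 1.67 (edgeR adjusted p = 5.99e-06). AKT1S1, an mTOR complex component, was at 0.47 and did not pass (edgeR adjusted p = 0.102). Of 8 survival and transcription partners fitted 2 rose and 4 fell, with a median of -0.36. BCL2L11, the death protein BIM, rose by 2.91 (edgeR adjusted p = 5.87e-05) and WWTR1, the YAP relative TAZ, by 1.64 (edgeR adjusted p = 0.000853). FOXO4, a transcription factor kept in the cytoplasm by 14-3-3 binding, fell by 1.34 (edgeR adjusted p = 0.0149). The 4 falls became 2 without M0 replicate 4 and 1 without M2 replicate 1 or without M2 replicate 2.

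Of 11 cytoskeleton and cell contact partners fitted 5 rose and 4 fell, with a median of 0.14. KRT17, a wound keratin that binds stratifin in mouse keratinocytes, rose by 3.5 (edgeR adjusted p = 1.94e-10), CFL1, the actin-severing cofilin, by 1.47 (edgeR adjusted p = 4.36e-08) and CTTN, the actin regulator cortactin, by 0.98 (edgeR adjusted p = 1.22e-08). Over the 5 stages their rises were 3.5 to 4.48, 1.41 to 1.49 and 0.92 to 0.98, all called. KRT8 and KRT18, paired keratins of simple epithelium, fell in all 5 stages, at log2 fold changes of -6.59 to -4.43 and -4.46 to -3.1, and CBY1, a beta-catenin antagonist, fell in all 5 at -1.06 to -0.58. PARD3, a polarity protein, was called lower in all 5 stages at -0.85 to -0.52, but not in M4 with the replicate block or without M0 replicate 3 or 5 or M4 replicate 1, 2 or 4. These 4 are named after their values were seen, and KRT8 is also among the hair follicle and gland markers. The falls in M2 were 2 with a filter of at least 10 counts in at least 10 libraries, which left 9 of the 11 partners in the fit. With only the groups compared or without M0 replicate 2, 3, 4 or 5 they were 3, with 10 partners fitted. The 5 rises became 4 with only the groups compared, without M0 replicate 2 or without M2 replicate 1.

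Of 11 fitted genes known to regulate stratifin or to act beside it, 4 rose and 0 fell in M2, with a median of 0.29. HDAC1, a histone deacetylase, rose by 1.14 (edgeR adjusted p = 4.61e-09), DNMT1, the maintenance DNA methyltransferase, by 0.71 (edgeR adjusted p = 0.00116), and GRHL3, an epidermal differentiation factor, by 1.26 (edgeR adjusted p = 0.00313). Of 10 listed genes of the matrix response to released stratifin 7 were fitted. The collagenases MMP1 and MMP8, and TIMP1, were not in the fit, so the counts do not cover them. Of the 7 fitted genes, 6 rose in M2 and 0 fell, with a median of 1.25. The 6 became 4 without M0 replicate 1, 2, 3 or 4 or without M2 replicate 3 or 4, and 5 by limma-voom. COL1A1 and COL1A2 of this list are also fibroblast markers, of which 4 of 7 fitted rose in M2. MMP9, a gelatinase, rose by 6.73 (edgeR adjusted p = 6.67e-08), MMP3, stromelysin, by 4.42 (edgeR adjusted p = 0.000800, and 0.0734 by limma-voom) and FN1, fibronectin, by 0.84 (edgeR adjusted p = 0.00737). In M4 against M0, 1 of these 7 rose, MMP9, beside 21.3% of all genes. In that comparison 2 rose with DESeq2, with only the groups compared, without M0 replicate 5 or without M4 replicate 1.

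Of 53 partner genes fitted over the 6 lists, 3 were called between M4.1 and M4, 3 between M4 and M2 and 3 between M4 and M1. Each is 5.66% of the 53, beside 4.3%, 3.11% and 5.3% of all genes. FN1 was lower in M4 than in M2 by -1.08 on the log2 scale (edgeR adjusted p = 0.0329) and higher in M4.1 than in M4 by 0.98 (edgeR adjusted p = 0.0356). ARAF was higher in M4.1 than in M4 by 1.64 (edgeR adjusted p = 0.0356) and lower in M4 than in M1 by -1.49 (edgeR adjusted p = 0.0404). KRT17 was higher in M4 than in M2 by 0.98 and than in M1 by 0.90 (edgeR adjusted p = 0.0405 and 0.0408). HDAC7 in M4.1 against M4 (0.92), TRIM25 in M4 against M2 (0.92) and PKP2 in M4 against M1 (-1.45) were the remaining calls, with edgeR adjusted p-values of 0.0338, 0.0427 and 0.0387. Each of these 9 calls was lost in 7 to 11 of 36 alternatives, with adjusted p-values of up to 0.162. All 9 were lost with the replicate block and without M4 replicate 1, 3 or 5. Calls against M2 were also lost without M2 replicate 1, 2, 3 or 4, and calls against M1 without M1 replicate 1, 2 or 5, with KRT17 also lost without M1 replicate 4. Calls of M4.1 against M4 were lost without M4.1 replicate 3 or 4, and those of HDAC7 and FN1 without M4.1 replicate 1. KRT17 in both its comparisons, TRIM25, and ARAF in M4 against M1 were lost without M4 replicate 4.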

How the data were processed

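Per the labels, 1 library of 3′ messenger RNA ends was made from each of 29 skin biopsies. The tools named in the submitters' processing notes are RSEM 1.3.1, STAR, edgeR, cutadapt 2.8 and FastQC 0.11.7, and the build is ARS-UCD1.2. Per the file headers, the 5 deposited tables hold whole-number counts per gene and library. Whether RSEM values were rounded is not given in the sources used here. The authors deposited a normalized signal and p-values beside the counts, which were not used for the results.

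The 10629 genes in every table were joined, M0 being used once, and filterByExpr in edgeR 4.0.16 (R 4.3.3) left out 258. All 29 libraries entered 1 quasi-likelihood model with TMM factors (0.631 to 1.29) and 1 coefficient per group. P-values were adjusted over 10371 genes, and called, rose and fell mean an adjusted p under 0.05. SEs are approximate, dividing the size of a log2 fold change by the root of its F value. Shares were compared by exact permutation, relations by 100000 permutations of log2 CPM (prior count 2), with within-stage permutation for deviations. Replicate libraries differed beyond sampling noise, the chi-square per degree of freedom being at least 10.9. The fit was also run on simulated data with changes in M4 alone. Comparisons with M0 were not part of that run, and no result here rests on it.

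All 7 members were named, with up to 3 genes per partner list by smallest p in M2 against M0, the list genes called between lesion stages, and the 5 genes most like SFN and YWHAZ, of which 1 is not reported here. The members and lists were chosen with earlier results of these data known. Alternatives were RLE factors, other filters, the replicate block, limma-voom (limma 3.58.1), DESeq2 1.42.0, fewer groups and leaving out each library.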

Additional observations from a re-analysis of the deposited data

Results flagged for a closer look

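The YWHAG level in M3 replicate 2 was 456 CPM, far from the other 4 libraries of M3, of which the next was at 389 CPM. The gap was 0.829 of the whole range of M3. It was the 1 group set apart in this way of 48 tested. Chance gives about 1 in 20, so 1 of 48 is not more than chance gives. The 456 CPM lay within the 277 to 516 CPM that YWHAG spanned over all lesion libraries.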

How the results depend on the processing

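Under RLE factors, no filter, a filter of 10 counts, the replicate block, limma-voom, DESeq2, only the groups compared and leaving out each library, 0 members were called in any of the 6 pairs of lesion stages or among the 5 stages. An added test without M1, chosen after seeing the data, also called 0. Members called above M0 numbered 5 to 7. The SFN share difference between M4 and M2 ran from 4.17 to 7.48 percentage points when 1 replicate was left out. The r of SFN with YWHAZ was 0.494 and with YWHAG 0.521 under RLE factors (adjusted p = 0.0504 for both by permutation). Without the 2 farthest libraries r was 0.276 with YWHAZ and 0.668 with YWHAH, and on deviations from stage means it was 0.549 with YWHAE and 0.393 with YWHAQ. The cause of these changes was not tested. Numbers of all genes called moved more. Among the 5 stages 268 became 1 with the replicate block, 3 with limma-voom, 887 with DESeq2 and 0 with lesion groups only. Between M4.1 and M4, 446 became 46 with the block, 168 with limma-voom and 963 with DESeq2. Between M4 and M2, 323 became 62 with the block and 883 with DESeq2, and between M4 and M1, 550 became 231 with the block, 361 with limma-voom, 950 with DESeq2 and 20 with the 2 groups only. The labels do not pair replicate numbers: 17 of 70 same-number pairs had a correlation over 0.1 and 8 of 29 libraries matched their own number best. Members had at least 225 counts in every library.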
